A study of Mus musculus with 12 samples.

Results

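The hypoxia response and glycolysis genes described here are 40 of the 54532 genes counted in RNAseq of mouse brainstem progenitors. They were taken by name: 3 genes of the hypoxia-inducible factors (HIF), 2 oxygen sensors, 2 secreted factors, 4 glucose and lactate transporters, 18 enzymes of glycolysis and their regulators, 5 genes of mitochondria and pH, and 6 other hypoxia targets. All 40 names were found by Ensembl gene identifier. *Aldoa* had 2 identifiers, of which the one with the higher counts was used.

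The cells came from C57BL/6 pups of the genotype Nestin TVA; p53 floxed, at P3-P5 in the labels and at postnatal day 3 in the study's methods. They were grown as neurospheres without serum, with EGF and FGF2. RCAS vectors, avian retroviruses that enter only cells bearing the Tv-a receptor, here made from the nestin promoter, carried in human *ACVR1* WT or human *ACVR1* R206H, each with or without H3.1K27M. ACVR1 is a receptor of the BMP pathway, R206H is a mutation of it, and H3.1K27M is a mutant histone H3.1, both found in diffuse intrinsic pontine glioma. Each of these 4 groups held 3 samples. All 4 groups received an *ACVR1* vector and carried the floxed p53 genotype. The labels name no vector with Cre for these samples, and no group without a vector was analysed here. The group labels also name no control vector for H3.1K27M, such as unmutated H3.1. A difference with H3.1K27M thus cannot be told apart from that of adding a second vector. The labels do not say that the 3 samples of a group were separate cultures, so p values measure only the spread between these samples. In such bulk samples, fewer cells of a type and less RNA per cell cannot be told apart.

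In cells with enough oxygen, prolyl hydroxylases mark the HIF alpha subunits, HIF1α and HIF2α, for destruction through VHL. When oxygen is low the alpha subunits persist, pair with ARNT, bind the DNA core ACGTG or GCGTG and switch on genes for glucose uptake, glycolysis, lactate export, blood vessel growth and removal of mitochondria. Much of this control acts on the HIF proteins, which RNAseq does not measure, and proliferating neural progenitors also use glycolysis when oxygen is present.

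Each sample had a total of 19315020 to 26456257 counts, and the 40 genes together took 0.484 to 0.643% of it. The *ACVR1* WT libraries stood apart from each other. The biological coefficient of variation, the spread between replicates as a share of a gene's level, was 0.275 in that group, 0.120 without its replicate 1, and 0.0453 to 0.0594 in the other 3 groups. Astrocyte markers differed along with it: *Gfap*, an intermediate filament, stood at 343, 1412 and 2655 CPM in *ACVR1* WT replicates 1 to 3, and the 7 markers summed to 3808 to 13662 CPM there against 4713 to 7069 CPM in the other groups. CPM are counts brought to a common library size by TMM over all 12 samples. Microglia markers summed to 3.25 to 12.4 CPM in *ACVR1* WT, 4.28 to 6.03 in *ACVR1* R206H, 1.33 to 1.88 in *ACVR1* WT with H3.1K27M and 2.10 to 3.29 in *ACVR1* R206H with H3.1K27M, with their receptor *Csf1r* at or below 0.143 CPM in every library with H3.1K27M. The 7 endothelium markers summed to 1.116 to 1.98 CPM in *ACVR1* WT, 1.40 to 1.86 in *ACVR1* R206H, 1.958 to 2.68 in *ACVR1* WT with H3.1K27M and 3.35 to 5.53 with both mutations, with *Cldn5* at or below 0.0374 CPM in every library and *Kdr* also a member of the VEGF list below. The 7 mural cell and fibroblast markers summed to 9.08 to 12.4, 13.0 to 15.4, 15.1 to 15.9 and 24.7 to 30.0 CPM in the same order. The 3 ependymal markers summed to 29.3 to 53.5 CPM in the 6 libraries without H3.1K27M and 66.1 to 80.3 in the 6 with it, and the 8 oligodendrocyte lineage markers to 2363 to 3270 and 3481 to 4284. The latter were at 3626 to 4284 in *ACVR1* WT with H3.1K27M and 3481 to 3572 with both mutations. With R206H next to H3.1K27M, 0 of these 8 were higher and 6 lower in the edgeR test described below, which 20.3% of all genes passed. The progenitor markers *Nes* and *Sox2* were present in all 12 libraries, *Nes* at 404, 131 and 72.5 CPM in *ACVR1* WT and at 236 CPM or more in the others. All 8 progenitor markers summed to 4148 to 5486 CPM in *ACVR1* WT and 4882 to 5891 in the other groups. In the edgeR test, 5 were higher and 1 lower with R206H next to H3.1K27M, which 20.3% of all genes passed. With H3.1K27M next to *ACVR1* R206H, 1 was higher and 4 lower, against 56.5% of all genes. Counts assigned to mouse *Acvr1* were 46.1 to 53.1 CPM in *ACVR1* WT, 82.3 to 114 in *ACVR1* R206H, 163 to 368 in *ACVR1* WT with H3.1K27M and 548 to 1056 in *ACVR1* R206H with H3.1K27M, so that this count also differed in every comparison below. The part of these differences in the results was not tested, and many of the counts and values that use *ACVR1* WT are also given without its replicate 1.

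Promoters of 4 genes that were lower (*Adm*, *Pfkl*) or higher (*Egln3*, *Ldhb*) with H3.1K27M next to both forms of *ACVR1* are printed as examples. They are 4 of the 12 genes that passed the test described below in the same direction next to both forms. *Eno2* and *Gpi1*, also higher next to both, held no HIF core in their windows. Each line holds the 250 bases before the start of a RefSeq transcript in GRCm38.p6, on the strand of the gene, with the HIF core in capitals. The core was searched as ACGTG or GCGTG on both strands, so that CACGT and CACGC are the same letters read from the opposite strand. The E-box CACGTG holds it as well. The *Adm* window is chr7:110627407-110627656 on the + strand, *Pfkl* is chr10:78009808-78010057 on the − strand, *Egln3* is chr12:54203875-54204124 on the − strand and *Ldhb* is chr6:142507958-142508207 on the − strand.
Adm: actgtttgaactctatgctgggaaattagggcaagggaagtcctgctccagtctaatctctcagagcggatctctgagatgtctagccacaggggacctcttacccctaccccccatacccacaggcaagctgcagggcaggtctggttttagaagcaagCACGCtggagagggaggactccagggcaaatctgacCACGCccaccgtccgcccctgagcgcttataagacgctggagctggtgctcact
Pfkl: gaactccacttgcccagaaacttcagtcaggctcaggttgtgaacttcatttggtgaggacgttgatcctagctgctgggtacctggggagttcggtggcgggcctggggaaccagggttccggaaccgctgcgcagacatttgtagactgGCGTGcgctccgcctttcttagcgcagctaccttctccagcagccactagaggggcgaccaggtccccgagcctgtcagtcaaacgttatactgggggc
Egln3: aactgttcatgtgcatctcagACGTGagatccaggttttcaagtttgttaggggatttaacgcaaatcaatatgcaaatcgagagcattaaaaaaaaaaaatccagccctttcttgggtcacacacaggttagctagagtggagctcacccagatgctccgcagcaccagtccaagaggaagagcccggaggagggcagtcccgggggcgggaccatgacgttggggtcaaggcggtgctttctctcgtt
Ldhb: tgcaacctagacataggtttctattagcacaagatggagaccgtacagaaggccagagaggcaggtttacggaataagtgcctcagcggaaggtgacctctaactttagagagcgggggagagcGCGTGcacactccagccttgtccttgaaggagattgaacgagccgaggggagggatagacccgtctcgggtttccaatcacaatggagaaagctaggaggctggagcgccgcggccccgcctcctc

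The *Adm* window held 2 cores, which began 90 and 54 bases before the start. The single core of the other windows began 99 bases before the start in *Pfkl*, 229 in *Egln3* and 126 in *Ldhb*. The *Pfkl* start in RefSeq lay 276 bases from the start of the gene in GENCODE, and those of the others at most 14. RefSeq windows of 300 bases, which add 50 bases after the start, matched 35 of the 40 genes. *Epas1*, *Ndrg1*, *Slc2a3*, *Bnip3l* and *Bhlhe40* were not matched. The core was in 39 of the 52 windows of these genes (75%) and in 43.8% of all 32851 promoter windows. The E-box was in 11.5% of the former and 7.15% of the latter. With *ACVR1* R206H, 15 of 19 matched genes that were higher with H3.1K27M held a core in any window (78.9%), as did 11 of 11 that were lower (100%). Of all 35 matched genes of the list 31 did (88.6%), called or not, and of all 27025 genes 46.7%. Genes with the same letters in their promoters thus moved in both directions, and a match of letters is a description of sequence and not of binding.

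The comparisons with and without H3.1K27M come first. A gene was called at an adjusted p under 0.05 in the quasi-likelihood test of edgeR, adjusted by Benjamini-Hochberg over all genes tested, and a log2 fold change is written for the first group over the second. With *ACVR1* R206H, 33 of 38 genes tested were called between libraries with and without H3.1K27M, 20 higher and 13 lower, where 56.5% of all 15482 genes tested were called (29.1% higher, 27.4% lower). Their median log2 fold change was 0.18, against -0.00 over all genes. With *ACVR1* WT, 14 of 40 were called, 6 higher and 8 lower, where 23% of all 15385 genes were called (12.6% higher, 10.4% lower), with a median of 0.03 against -0.02. Among the 38 genes tested in both, 12 were called in the same direction in both, 6 higher and 6 lower. That is 85.7% of the calls made with *ACVR1* WT and 36.4% of those made with *ACVR1* R206H, and for all genes the shares were 94.7% and 38.2%. These 2 comparisons share no sample. The CPM of the libraries compared did not overlap in 32 of 38 genes with *ACVR1* R206H, where this held for 63.1% of all genes, and in 24 of 40 with *ACVR1* WT, where it held for 44.6%.

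The count with *ACVR1* WT depended on single libraries. It was 30 (15 higher, 15 lower) without *ACVR1* WT replicate 1, where 52.6% of all genes were called (26.9% higher, 25.6% lower), 6 without *ACVR1* WT replicate 2 (1445 of all genes), 16 without *ACVR1* WT replicate 3 (2739 of all genes), and 4, 4 and 5 without replicate 1, 2 or 3 of *ACVR1* WT with H3.1K27M (1189, 1050 and 1037 of all genes). *Adm*, *Egln3*, *Ldhb* and *Eno2* kept their calls under each of these 6 omissions. A fit of all 12 samples, in which the wide spread of *ACVR1* WT enters every comparison, called 21 of the genes (5963 of all genes) with *ACVR1* R206H and 23 (6335 of all genes) with *ACVR1* WT. Without *ACVR1* WT replicate 1, H3.1K27M next to *ACVR1* WT gave -0.82 for *Adm*, 1.497 for *Egln3*, 0.56 for *Ldhb*, 0.80 for *Eno2*, 0.48 for *Gpi1*, -0.79 for *Pfkl*, -0.71 for *Slc2a3*, -1.18 for *Mxi1* and -2.73 for *Ndrg1*, all still called.

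**Figure D1:**
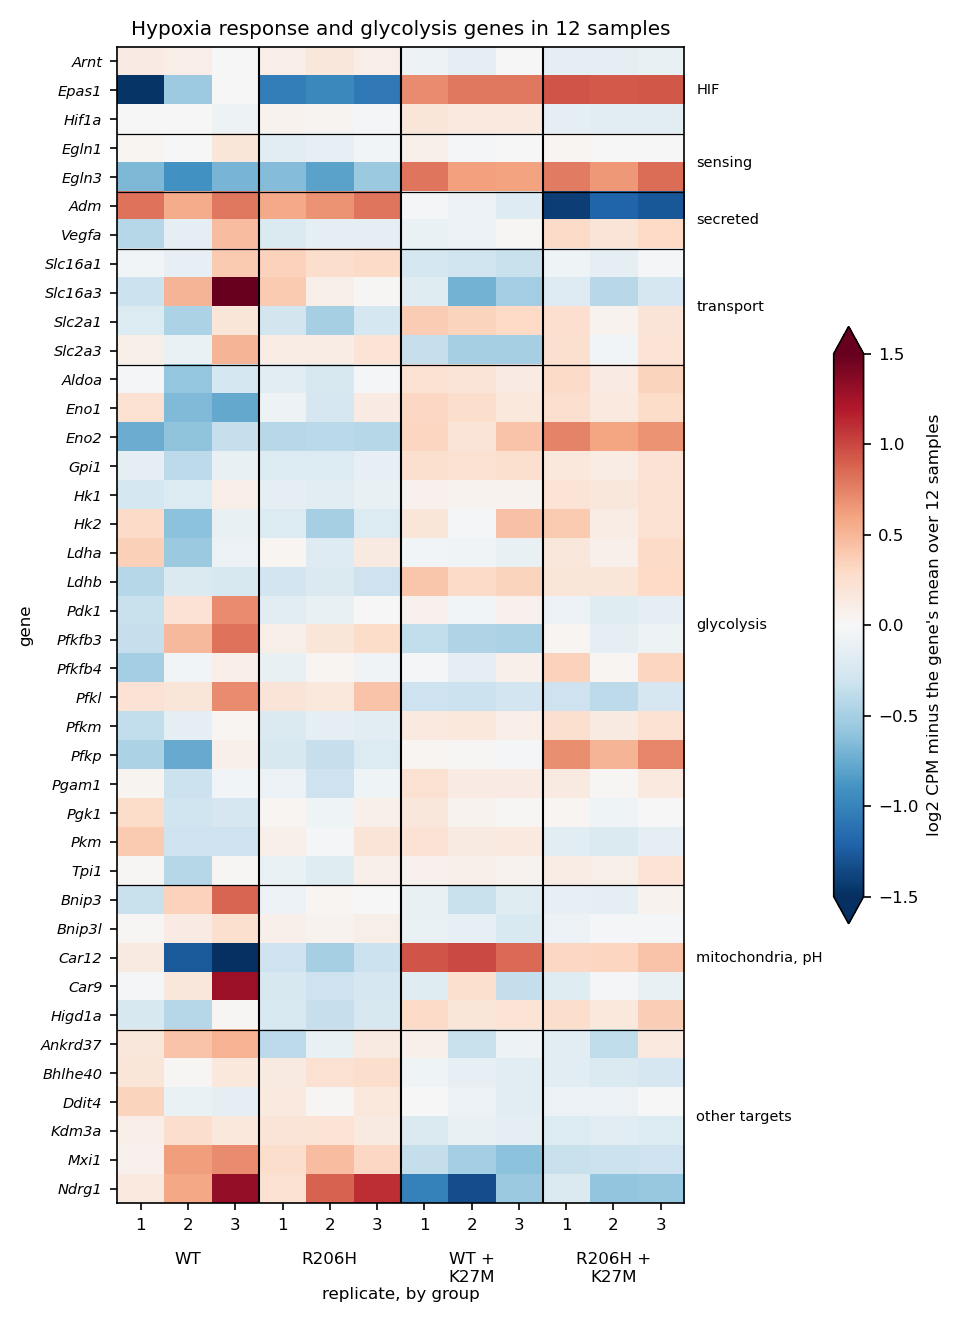
Heat map of the 40 genes (rows, grouped by role) in the 12 samples (columns, by group and replicate), with colour showing log2 CPM minus the mean of the gene over 12 samples. In the 6 libraries with H3.1K27M *Epas1* and *Egln3* are higher and *Adm*, *Mxi1* and *Ndrg1* lower than in the 6 without it, and *ACVR1* WT replicates 1 and 3 differ from each other in many rows.

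R206H was compared next, to ask what the mutation of the receptor does with and without the mutant histone. Without H3.1K27M, 0 of the 40 genes and 0 of all 15066 genes tested (0%) were called by edgeR, 3 of the 40 and 534 of all genes (3.54%) had an unadjusted p under 0.05, and DESeq2 called 26 genes, 0 of them among the 40. With H3.1K27M, 15 of 38 genes tested were called, 11 higher and 4 lower with R206H, where 20.3% of all 15672 genes were called (11.4% higher, 8.95% lower). The median log2 fold change of the 38 was 0.09, against 0.00 over all genes. In the fit of all 12 samples only *Adm*, *Hif1a* and *Slc2a3* of the 15 stayed past the threshold, where the count over all genes was 440. The groups did not overlap in 19 of the 38 genes with H3.1K27M, against 37.2% of all genes, and in 3 of the 40 without it, against 9.21%.

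The HIF genes moved apart from each other. *Epas1* (chr17:86753700-86833410 in mm10), which encodes HIF2α, stood at 13.0, 25.2 and 36.9 CPM in *ACVR1* WT, 17.7, 18.6 and 17.3 in *ACVR1* R206H, 60.8, 64.0 and 63.9 in *ACVR1* WT with H3.1K27M, and 71.4, 70.1 and 70.8 in *ACVR1* R206H with H3.1K27M. All 6 libraries with H3.1K27M were above all 6 without it, and the *ACVR1* WT libraries were spread around those of *ACVR1* R206H. *Epas1* rose with H3.1K27M by a log2 fold change of 2.02 (SE 0.05, adjusted p = 2.9e-10, edgeR quasi-likelihood test, n = 3 and 3) with *ACVR1* R206H, and by 1.32 (SE 0.34, adjusted p = 0.037) with *ACVR1* WT, where the value without *ACVR1* WT replicate 1 was 1.01 (adjusted p = 0.00055). This second call was lost without *ACVR1* WT replicate 2 or without any single library of *ACVR1* WT with H3.1K27M. Between the groups with H3.1K27M, *Epas1* was higher with R206H by 0.20 (SE 0.04, adjusted p = 0.0057), the groups not overlapping.

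*Hif1a* (chr12:73901375-73947530), which encodes HIF1α, moved the other way from *Epas1* in the comparisons that use the group with both mutations. It stood at 342, 343 and 326 CPM in *ACVR1* WT, 355, 352 and 338 in *ACVR1* R206H, 390, 380 and 380 in *ACVR1* WT with H3.1K27M, and 313, 307 and 305 in *ACVR1* R206H with H3.1K27M. The lowest 3 of the 12 libraries were those with both mutations and the highest 3 were those of *ACVR1* WT with H3.1K27M. With H3.1K27M, *Hif1a* fell with R206H, with a log2 fold change of -0.28 (SE 0.03, adjusted p = 0.00011). With *ACVR1* R206H it fell with H3.1K27M, at -0.15 (SE 0.04, adjusted p = 0.0077), and with *ACVR1* WT the value was 0.17 (SE 0.07, adjusted p = 0.11, and 0.025 without *ACVR1* WT replicate 1). An antisense transcript, *Gm15283*, with 308 counts over the 12 libraries against 90144 of *Hif1a*, overlaps the gene, and counting without strand cannot tell the reads of the pair apart.

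*Arnt* (chr3:95434388-95497240), the shared partner of the alpha subunits, varied least of the 3. It had 50.4 ± 2.34 CPM (SD, n = 3) in *ACVR1* WT, 52.1 ± 1.51 in *ACVR1* R206H, 45.6 ± 2.37 in *ACVR1* WT with H3.1K27M and 43.7 ± 0.503 in *ACVR1* R206H with H3.1K27M. It fell with H3.1K27M next to *ACVR1* R206H, at -0.22 (SE 0.05, adjusted p = 0.0022), and its other 3 comparisons did not pass the threshold (-0.16 with H3.1K27M next to *ACVR1* WT, adjusted p = 0.17). In TPM, which divides by gene length and so allows genes to be compared, *Epas1* made up 7.23 ± 3.41% of the summed level of the alpha subunits in *ACVR1* WT, 5.13 ± 0.151% in *ACVR1* R206H, 14.8 ± 0.558% in *ACVR1* WT with H3.1K27M and 19.5 ± 0.167% in *ACVR1* R206H with H3.1K27M. *Hif1a* RNA was the more abundant of the pair in every library. No test was run on these shares, for which an exact permutation test of 3 samples against 3 cannot go below 0.1.

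**Figure D2:**
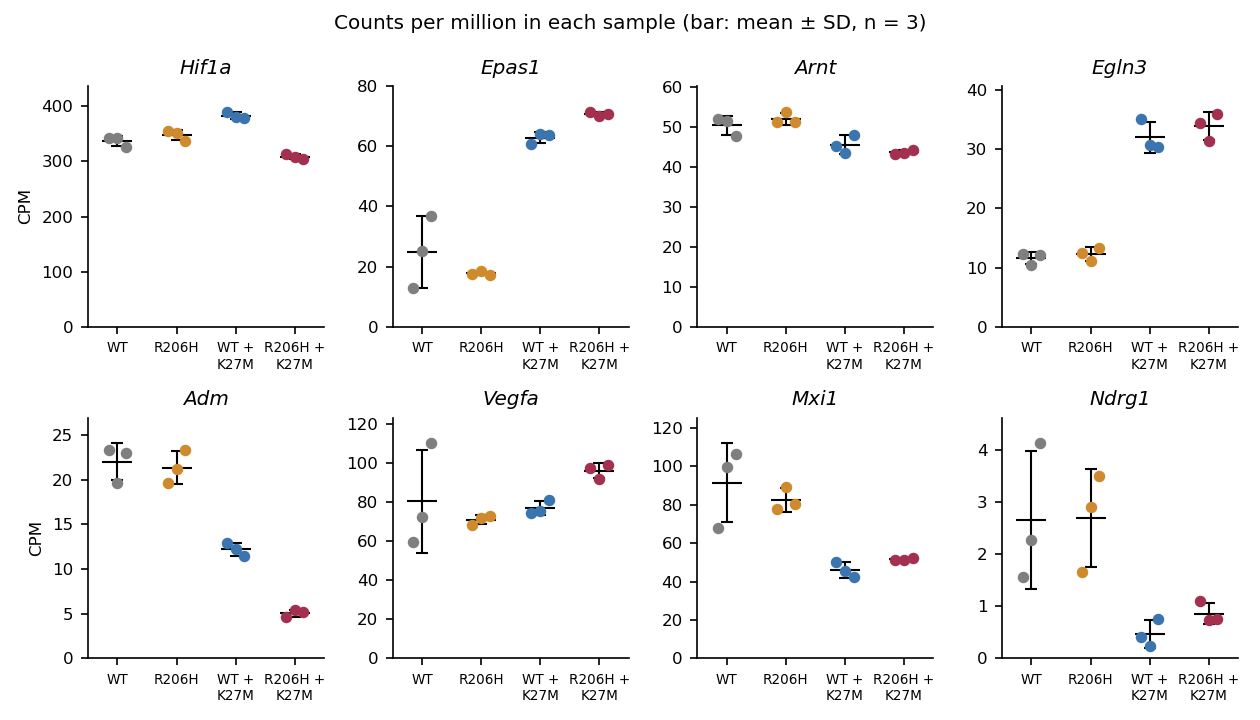
Level in CPM (vertical axis, starting at 0) of 8 genes in each of the 12 samples, by group (horizontal axis), with a point for each sample and bars for the mean ± SD (n = 3). *Epas1* and *Egln3* lie higher and *Adm*, *Mxi1* and *Ndrg1* lower in the groups with H3.1K27M, while the points of *ACVR1* WT are spread widely for *Epas1*, *Vegfa* and *Mxi1*.

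Of the oxygen sensors, *Egln3* (chr12:54178981-54203860), a prolyl hydroxylase that is itself a target of HIF, rose with H3.1K27M and did not follow the form of *ACVR1*. Its libraries stood at 12.2, 10.4 and 12.1 CPM in *ACVR1* WT, 12.4, 11.1 and 13.3 in *ACVR1* R206H, 35.0, 30.7 and 30.3 in *ACVR1* WT with H3.1K27M, and 34.4, 31.3 and 36.0 in *ACVR1* R206H with H3.1K27M. The 6 libraries with H3.1K27M lay wholly above the other 6. The log2 fold change was 1.46 (SE 0.11, adjusted p = 0.0013) with *ACVR1* WT and 1.49 (SE 0.08, adjusted p = 2.6e-08) with *ACVR1* R206H. For R206H against WT it was 0.08 without H3.1K27M and 0.12 with it (adjusted p = 0.26), and neither passed. *Egln1*, the main prolyl hydroxylase, ranged from 103 to 131 CPM over all libraries and rose with H3.1K27M next to *ACVR1* R206H, by 0.15 (SE 0.04, adjusted p = 0.011). *Egln3* accordingly took 11.4 ± 0.807% of the summed TPM of the pair in *ACVR1* WT, 13.4 ± 0.853% in *ACVR1* R206H, 26.8 ± 0.865% in *ACVR1* WT with H3.1K27M and 28.3 ± 1.43% in *ACVR1* R206H with H3.1K27M.

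Among the secreted factors, *Adm* (chr7:110627661-110629820), which encodes the vasodilator peptide adrenomedullin, had its lowest level where both mutations were present. Its libraries stood at 23.4, 19.6 and 23.0 CPM in *ACVR1* WT, 19.6, 21.2 and 23.3 in *ACVR1* R206H, 12.9, 12.3 and 11.4 in *ACVR1* WT with H3.1K27M, and 4.61, 5.40 and 5.15 in *ACVR1* R206H with H3.1K27M. The groups without H3.1K27M overlapped, all 3 libraries of *ACVR1* WT with H3.1K27M were below them, and all 3 with both mutations were lower still. *Adm* fell with H3.1K27M, with a log2 fold change of -0.86 (SE 0.11, adjusted p = 0.0049) next to *ACVR1* WT and -2.04 (SE 0.10, adjusted p = 1.3e-08) next to *ACVR1* R206H. R206H gave -0.05 (SE 0.11, adjusted p = 0.95) without H3.1K27M and -1.23 (SE 0.10, adjusted p = 4e-06) with it.

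The difference between these R206H effects was tested as an interaction on all 12 samples. *Adm* was the 1 gene of 40 that passed, with an interaction of -1.18 (SE 0.15, adjusted p = 0.021), where 11 of all 15445 genes (0.0712%) were called, 0.0583% higher and 0.0129% lower. Adjusted p was between 0.054 and 0.11 in 9 of the 12 fits that left out a library: *ACVR1* WT replicate 2, all 3 of *ACVR1* WT with H3.1K27M, all 3 of *ACVR1* R206H, and replicates 2 and 3 of *ACVR1* R206H with H3.1K27M. The estimate stayed between -1.24 and -1.10. With the replicate number as a block, 0 of the 40 genes and 2 of all genes passed. Without *ACVR1* WT replicate 1, adjusted p for *Adm* was 0.00013 and 19 of the genes passed (13 higher, 6 lower), where 26.6% of all genes did (13.6% higher, 13% lower). *Epas1* at 1.02 (adjusted p = 0.00038), *Hif1a* at -0.33 (adjusted p = 0.0017), *Vegfa* at 0.72 (adjusted p = 0.005) and *Slc2a3* at 0.74 (adjusted p = 0.0091) were among them. With all 12 libraries, *Hif1a* gave -0.32 (adjusted p = 0.20), *Epas1* 0.70 (adjusted p = 0.68) and *Arnt* -0.06. Without *ACVR1* WT replicate 3 the interaction of *Epas1* was 0.30, the lowest of the fits that left out a library.

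*Vegfa* (chr17:46016993-46032369), the growth factor of blood vessels, went the opposite way from *Adm* in the comparisons that use the group with both mutations. It stood at 59.3, 72.0 and 110 CPM in *ACVR1* WT, 68.4, 71.9 and 72.6 in *ACVR1* R206H, 74.4, 75.1 and 80.9 in *ACVR1* WT with H3.1K27M, and 97.4, 91.5 and 98.6 in *ACVR1* R206H with H3.1K27M. Apart from *ACVR1* WT replicate 3, which was the highest of all, the libraries with both mutations were above the rest. With H3.1K27M, R206H raised it by 0.35 (SE 0.05, adjusted p = 0.00018), and next to *ACVR1* R206H it rose with H3.1K27M by 0.46 (SE 0.04, adjusted p = 3.3e-06). Next to *ACVR1* WT the value was -0.08 (adjusted p = 0.83), and -0.26 without *ACVR1* WT replicate 1 (adjusted p = 0.19).

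The receptor genes of these factors, taken from lists of related genes, behaved in different ways. *Calcrl*, the receptor of adrenomedullin, fell with H3.1K27M by 0.76 on the log2 scale next to *ACVR1* WT (adjusted p = 0.025) and by 0.73 next to *ACVR1* R206H (adjusted p = 3.5e-07), and *Ramp2*, its partner, was called in no comparison with all libraries. With R206H next to H3.1K27M, where *Adm* fell, 2 of the 5 genes tested in this list were called, both higher: *Adm2*, a related peptide, at 2.73 (adjusted p = 0.00045) and the scavenger receptor *Ackr3* at 0.26 (adjusted p = 0.013). *Adm2* was at or below 0.859 CPM in every library. With H3.1K27M next to *ACVR1* R206H, 1 of 4 was higher, *Ramp1* at 0.54, and 2 were lower. In the VEGF list, 7 of 11 genes tested were higher and 4 lower with H3.1K27M next to *ACVR1* R206H, where 56.5% of all genes were called, among them the ligand *Vegfb* (0.31), the co-receptor *Nrp1* (0.84) and the angiopoietins *Angpt2* (3.89) and *Angpt1* (-1.39). Next to *ACVR1* WT 4 of 10 were higher and 2 lower (60% called, against 23% of all genes), and 5 and 4 without *ACVR1* WT replicate 1 (90% against 52.6%). With H3.1K27M, R206H gave 6 higher and 0 lower of 11 (54.5% called, against 20.3% of all genes), *Nrp1* at 0.55, *Nrp2* at 0.37 and the receptor *Kdr* at 1.16 among them.

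Of the transporters, *Slc2a3* (chr6:122727809-122801640), the glucose transporter GLUT3, was low in a single group. It stood at 30.3, 26.6 and 40.6 CPM in *ACVR1* WT, 30.6, 30.7 and 32.8 in *ACVR1* R206H, 22.2, 20.0 and 20.0 in *ACVR1* WT with H3.1K27M, and 33.6, 27.6 and 32.9 in *ACVR1* R206H with H3.1K27M. The libraries of *ACVR1* WT with H3.1K27M lay below all others. It fell with H3.1K27M next to *ACVR1* WT (-0.66, SE 0.17, adjusted p = 0.034, a call lost without any single library of *ACVR1* WT with H3.1K27M) and gave 0.03 next to *ACVR1* R206H (adjusted p = 0.76). With H3.1K27M it rose with R206H by 0.62 (SE 0.07, adjusted p = 8.7e-05), and the interaction of 0.69 did not pass (unadjusted p = 0.0041, adjusted p = 0.40).

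*Slc2a1*, the widespread glucose transporter GLUT1, was 29.0 to 46.6 CPM in the 6 libraries without H3.1K27M and 42.9 to 54.0 in the 6 with it. It rose with H3.1K27M next to *ACVR1* R206H (0.55, adjusted p = 4.7e-05) and was at 0.48 next to *ACVR1* WT (adjusted p = 0.079), which passed without *ACVR1* WT replicate 1 (0.45, adjusted p = 0.046). *Slc2a3* took 29.7 ± 0.629% of the summed TPM of the pair in *ACVR1* WT, 32.0 ± 1.76% in *ACVR1* R206H, 16.1 ± 0.501% in *ACVR1* WT with H3.1K27M and 24.6 ± 0.734% in *ACVR1* R206H with H3.1K27M. Of the monocarboxylate transporters, which carry lactate, *Slc16a1* made up 97.1% or more of the summed TPM in every library. It stood at 111, 105 and 150 CPM in *ACVR1* WT, 145, 138 and 139 in *ACVR1* R206H, 94.9, 92.5 and 90.1 in *ACVR1* WT with H3.1K27M, and 110, 104 and 113 in *ACVR1* R206H with H3.1K27M. It fell with H3.1K27M next to *ACVR1* R206H (-0.34, adjusted p = 2.7e-05) and with H3.1K27M rose with R206H (0.26, adjusted p = 0.00063). *Slc16a3*, the lactate exporter MCT4, was at 0.716 to 5.44 CPM in all libraries and fell with H3.1K27M next to *ACVR1* R206H (-0.60, adjusted p = 0.042), a call lost with DESeq2 and in 5 of the 6 fits that left out a library.

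Of the 18 genes of glycolysis, 13 rose and 3 fell with H3.1K27M next to *ACVR1* R206H, where 29.1% of all genes rose and 27.4% fell, with a median log2 fold change of 0.32. Next to *ACVR1* WT, 3 rose and 1 fell, with a median of 0.22, and the 22.2% called were near the 23% of all genes called there. Without *ACVR1* WT replicate 1, 9 rose and 3 fell, where 26.9% of all genes rose and 25.6% fell. The genes summed to 3396 to 4626 CPM in *ACVR1* WT, 3935 to 4471 in *ACVR1* R206H, 4726 to 4965 in *ACVR1* WT with H3.1K27M and 4466 to 4865 in *ACVR1* R206H with H3.1K27M. The libraries of *ACVR1* WT with H3.1K27M lay above all 6 without H3.1K27M, and those with both mutations overlapped both groups without it. Several enzymes have near-identical processed copies in the mouse genome, and since reads with several matches were not counted, their levels are uncertain. *Pfkm*, *Pfkp*, *Tpi1*, *Aldoa*, *Pkm*, *Gpi1* and *Hk1* also overlap another annotated gene.

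At the first step, *Hk1*, the hexokinase of brain, took 95.2% or more of the summed TPM of *Hk1* and *Hk2* in every library and rose with H3.1K27M next to *ACVR1* R206H by 0.37 (adjusted p = 6.5e-06). *Hk2*, the inducible hexokinase, was at 2.84 to 6.44 CPM over all libraries and rose in the same comparison by 0.63 (adjusted p = 0.0025). *Gpi1*, glucose phosphate isomerase, was at 263 to 320 CPM without H3.1K27M and 373 to 410 with it, and rose next to both forms of *ACVR1* (0.44, adjusted p = 0.021, with WT and 0.37, adjusted p = 1.4e-05, with R206H). The call with WT was lost without *ACVR1* WT replicate 2 or any single library of *ACVR1* WT with H3.1K27M.

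At the committed step, *Pfkl* fell with H3.1K27M while *Pfkm* and *Pfkp* rose with it next to *ACVR1* R206H. *Pfkl*, the liver form, stood at 92.8, 90.8 and 130 CPM in *ACVR1* WT, 91.3, 89.0 and 107 in *ACVR1* R206H, 64.1, 63.8 and 65.1 in *ACVR1* WT with H3.1K27M, and 64.2, 60.8 and 66.9 in *ACVR1* R206H with H3.1K27M. All 6 libraries with H3.1K27M were below all 6 without it. *Pfkl* fell by 0.71 on the log2 scale next to *ACVR1* WT (SE 0.15, adjusted p = 0.019, lost without any single library of *ACVR1* WT with H3.1K27M) and by 0.55 next to *ACVR1* R206H (SE 0.07, adjusted p = 2.3e-05). *Pfkm*, the muscle form, rose next to *ACVR1* R206H (0.41, adjusted p = 4.7e-06) and gave 0.28 next to *ACVR1* WT (adjusted p = 0.12), or 0.18 without *ACVR1* WT replicate 1 (adjusted p = 0.058).

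*Pfkp* (chr13:6579768-6648777), the platelet form, stood at 27.7, 22.7 and 40.6 CPM in *ACVR1* WT, 32.6, 30.3 and 33.4 in *ACVR1* R206H, 39.4, 39.2 and 37.9 in *ACVR1* WT with H3.1K27M, and 62.7, 55.1 and 64.3 in *ACVR1* R206H with H3.1K27M. The libraries with both mutations were the 3 highest of the 12. With H3.1K27M it rose with R206H by 0.68 (SE 0.06, adjusted p = 5.1e-06), and with *ACVR1* R206H it rose with H3.1K27M by 0.95 (SE 0.06, adjusted p = 1.8e-07). *Pfkm* still made up 80.8 to 89.2% of the summed TPM of the 3 genes in every library, and *Pfkl* took 15.4 ± 1.51% in *ACVR1* WT, 14.5 ± 1.19% in *ACVR1* R206H, 8.42 ± 0.250% in *ACVR1* WT with H3.1K27M and 7.91 ± 0.177% in *ACVR1* R206H with H3.1K27M. *Pfkfb3*, whose product drives phosphofructokinase, was at 36.7, 65.8 and 82.3 CPM in *ACVR1* WT, 49.7, 53.02 and 56.5 in *ACVR1* R206H, 36.1, 34.0 and 33.4 in *ACVR1* WT with H3.1K27M and 47.8, 42.2 and 44.1 in *ACVR1* R206H with H3.1K27M. It rose with R206H next to H3.1K27M (0.40, adjusted p = 0.00029) and fell with H3.1K27M next to *ACVR1* R206H (-0.22, adjusted p = 0.0087). *Pfkfb4*, of the same family, was at 6.96 to 13.0 CPM and rose by 0.30 (adjusted p = 0.049) and 0.32 (adjusted p = 0.016) in those comparisons, calls that were lost with 4 and 3 of the 6 libraries left out in turn.

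**Figure D3:**
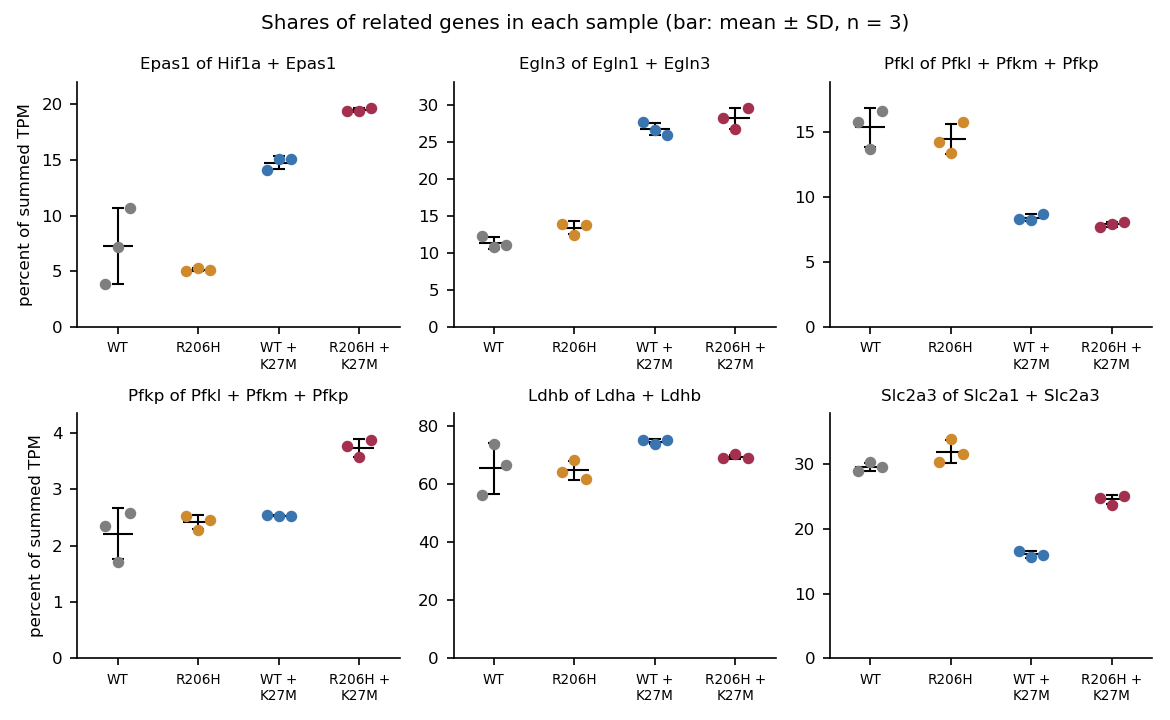
Share in percent of the summed TPM of a family (vertical axis) taken by a named member, by group (horizontal axis), with a point for each sample and bars for the mean ± SD (n = 3). *Epas1* and *Egln3* take a larger share and *Pfkl* and *Slc2a3* a smaller share with H3.1K27M, *Pfkp* a larger one with both mutations, and for *Ldhb* the *ACVR1* WT samples overlap those with both mutations.

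Further down the pathway, *Eno2* (chr6:124760053-124769673), the enolase of neurons, rose with H3.1K27M. It stood at 10.8, 11.97 and 14.4 CPM in *ACVR1* WT, 13.8, 13.9 and 13.6 in *ACVR1* R206H, 23.2, 21.3 and 25.2 in *ACVR1* WT with H3.1K27M, and 31.4, 28.1 and 29.8 in *ACVR1* R206H with H3.1K27M. The groups with H3.1K27M overlapped neither each other nor the groups without it. The log2 fold change was 0.89 (SE 0.14, adjusted p = 0.0078) with *ACVR1* WT and 1.14 (SE 0.06, adjusted p = 4.4e-08) with *ACVR1* R206H, and R206H added 0.38 next to H3.1K27M (adjusted p = 0.0017). Neuron markers also differed: they summed to 27.1 to 162 CPM in *ACVR1* WT, 39.4 to 44.8 in *ACVR1* R206H, 38.8 to 42.7 in *ACVR1* WT with H3.1K27M and 49.4 to 52.1 with both mutations. Of the 6, 4 were higher and 1 lower with H3.1K27M next to *ACVR1* R206H (83.3% called, against 56.5% of all genes), 1 and 1 next to *ACVR1* WT (33.3% against 23%, and 1 and 3 without *ACVR1* WT replicate 1, 66.7% against 52.6%), and 3 and 0 with R206H next to H3.1K27M (50% against 20.3%). Their part in the result for *Eno2* was not tested. *Eno1*, the common enolase, held 93.8% or more of the summed TPM of the pair in every library.

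*Ldhb* (chr6:142490249-142507957), the lactate dehydrogenase subunit that favours pyruvate, stood at 265, 308 and 303 CPM in *ACVR1* WT, 294, 306 and 288 in *ACVR1* R206H, 477, 437 and 449 in *ACVR1* WT with H3.1K27M, and 406, 404 and 438 in *ACVR1* R206H with H3.1K27M. Every library with H3.1K27M was above every library without it. It rose by 0.63 (SE 0.09, adjusted p = 0.0059) with *ACVR1* WT and by 0.52 (SE 0.04, adjusted p = 1.4e-06) with *ACVR1* R206H. *Ldha*, the subunit that favours lactate, was at 436, 232 and 321 CPM in *ACVR1* WT, 348, 300 and 376 in *ACVR1* R206H, 333, 328 and 316 in *ACVR1* WT with H3.1K27M and 383, 361 and 415 in *ACVR1* R206H with H3.1K27M, and rose with R206H next to H3.1K27M (0.28, adjusted p = 0.0011). It was also called higher with H3.1K27M next to *ACVR1* R206H, at 0.12 to 0.28 over the 6 fits that left out a library, a call lost in 4 of them. *Ldhb* took 65.5 ± 8.79% of the summed TPM of the pair in *ACVR1* WT and 74.6 ± 0.767% in *ACVR1* WT with H3.1K27M, against 64.7 ± 3.29% and 69.4 ± 0.703% with R206H.

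*Pkm*, pyruvate kinase, stood at 1342, 823 and 823 CPM in *ACVR1* WT, 1080, 1013 and 1174 in *ACVR1* R206H, 1192, 1122 and 1134 in *ACVR1* WT with H3.1K27M, and 912, 881 and 925 in *ACVR1* R206H with H3.1K27M. The libraries with both mutations were below those of the groups with a single mutation, and *ACVR1* WT lay on both sides. It fell with R206H next to H3.1K27M (-0.31, SE 0.04, adjusted p = 5.3e-05) and with H3.1K27M next to *ACVR1* R206H (-0.24, adjusted p = 0.0026). *Pgk1* and *Pdk1*, the kinase that holds pyruvate back from mitochondria, were called in no comparison with all libraries, while *Aldoa* (0.43), *Tpi1* (0.23), *Pgam1* (0.28) and *Eno1* (0.31) rose with H3.1K27M next to *ACVR1* R206H.

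**Figure D4:**
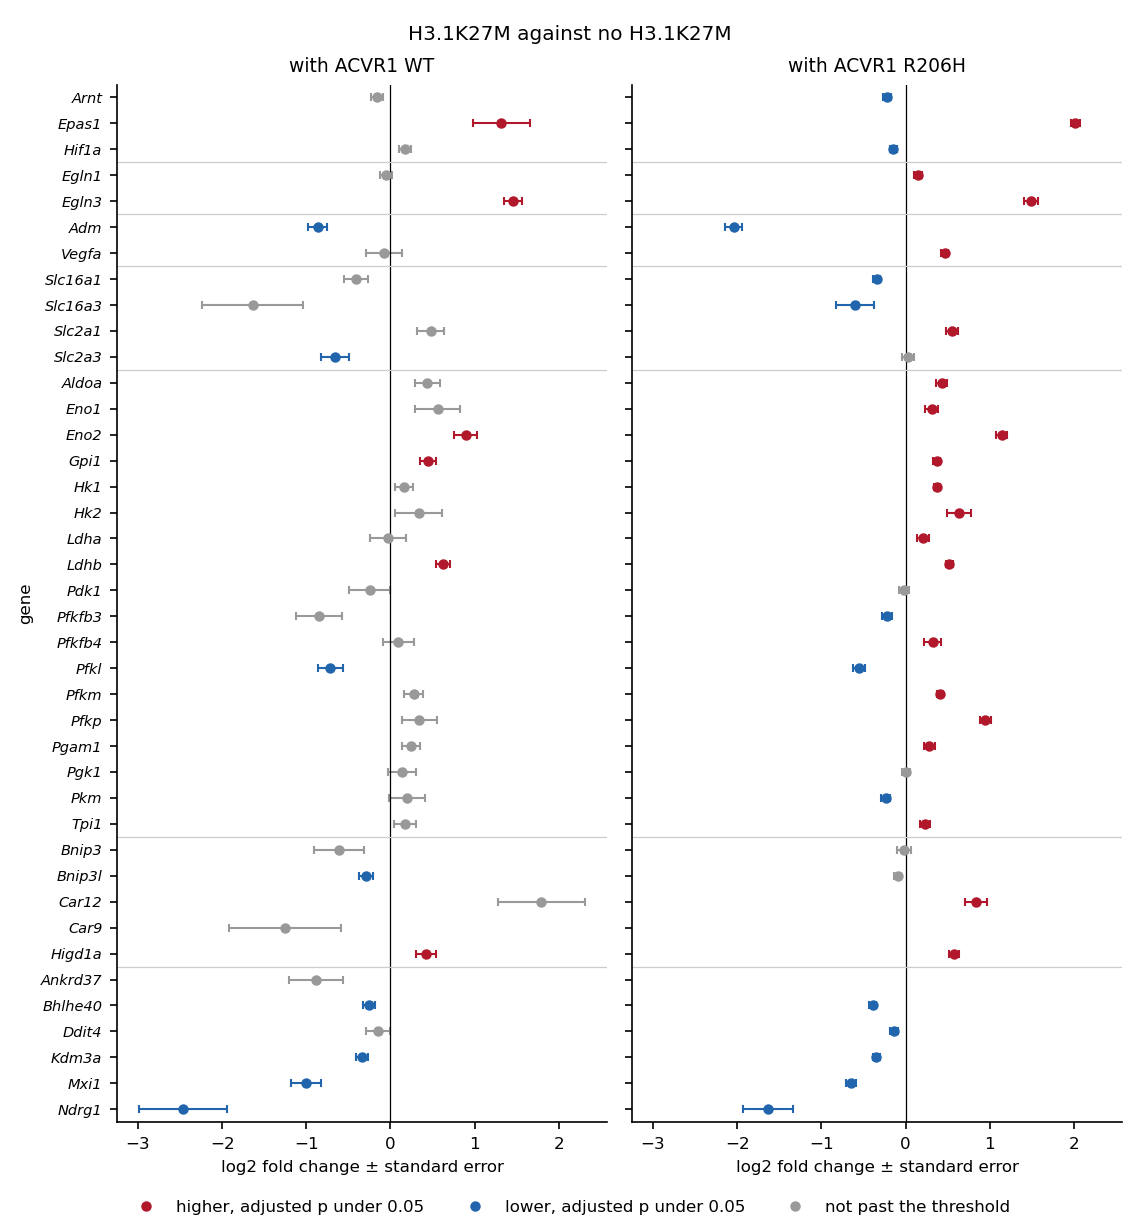
Log2 fold change with H3.1K27M over none for each gene tested, with *ACVR1* WT and with *ACVR1* R206H, grouped by role. Bars show the estimate ± standard error. *Epas1* and *Egln3* lie furthest to the right and *Adm* and *Ndrg1* furthest to the left with *ACVR1* R206H, and the bars with *ACVR1* WT are wider.

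Of the genes of mitochondria and pH, *Higd1a*, a protein of the respiratory chain, rose with H3.1K27M next to *ACVR1* R206H by 0.57 (adjusted p = 9.4e-06), at 32.9 to 35.5 CPM without it and 46.5 to 54.0 with it. Next to *ACVR1* WT it was at 31.0 to 42.2 CPM without H3.1K27M and 47.6 to 51.0 with it, and was also called higher. That value was 0.32 to 0.55 over the 6 fits that left out a library, and the call was lost in 4 of them. *Car12*, a membrane carbonic anhydrase, was at 5.03, 1.60 and 1.16 CPM in *ACVR1* WT, 3.57, 3.07 and 3.55 in *ACVR1* R206H, 9.21, 9.55 and 8.60 in *ACVR1* WT with H3.1K27M and 5.75, 5.79 and 6.28 in *ACVR1* R206H with H3.1K27M. It fell with R206H next to H3.1K27M (-0.58, adjusted p = 0.0011) and rose with H3.1K27M next to *ACVR1* R206H (0.84, adjusted p = 0.00015). Next to *ACVR1* WT *Car12* was not called with all libraries. Without *ACVR1* WT replicate 1 it rose there by 2.71 (adjusted p = 1.4e-05), and the interaction was then -1.87 (adjusted p = 8.9e-05). *Car9*, the carbonic anhydrase that is among the best known HIF1α targets, was near the lower limit, at 0.240 to 1.80 CPM over all libraries. *Bnip3*, a receptor for the removal of mitochondria, was at 10.8 to 14.3 CPM except in *ACVR1* WT, where replicates 2 and 3 stood at 17.6 and 25.7, and was called in no comparison with all libraries. Its relative *Bnip3l* fell with H3.1K27M next to *ACVR1* WT (-0.29, adjusted p = 0.042), a call that was kept only without *ACVR1* WT replicate 1 among the 6 omissions.

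Of the 6 other targets, none called with H3.1K27M was higher: 0 rose and 4 fell of 6 next to *ACVR1* WT (median -0.61), where 10.4% of all genes fell (5 without *ACVR1* WT replicate 1, where 25.6% fell), and 0 rose and 5 fell of 5 tested next to *ACVR1* R206H (median -0.39), where 27.4% fell. *Mxi1* (chr19:53310518-53375810), an antagonist of Myc, stood at 67.9, 99.9 and 106 CPM in *ACVR1* WT, 77.7, 89.3 and 80.6 in *ACVR1* R206H, 50.3, 45.5 and 42.2 in *ACVR1* WT with H3.1K27M, and 51.1, 51.5 and 52.1 in *ACVR1* R206H with H3.1K27M. The 6 libraries with H3.1K27M were the 6 lowest. It fell by 1.00 (SE 0.18, adjusted p = 0.012) with *ACVR1* WT and by 0.65 (SE 0.06, adjusted p = 1.2e-06) with *ACVR1* R206H, on the log2 scale.

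*Ndrg1* (chr15:66929318-66969640), a stress-response gene used as a marker of hypoxia, was low throughout, at 1.55, 2.27 and 4.13 CPM in *ACVR1* WT, 1.66, 2.91 and 3.50 in *ACVR1* R206H, 0.415, 0.239 and 0.760 in *ACVR1* WT with H3.1K27M, and 1.09, 0.729 and 0.747 in *ACVR1* R206H with H3.1K27M. All libraries with H3.1K27M were below all without it. It fell by 2.46 (SE 0.52, adjusted p = 0.02) with *ACVR1* WT and by 1.63 (SE 0.30, adjusted p = 0.00061) with *ACVR1* R206H. *Kdm3a*, a histone H3 lysine demethylase, fell by 0.34 (adjusted p = 0.02) and 0.35 (adjusted p = 2e-05), and *Bhlhe40*, a transcriptional repressor, by 0.26 (adjusted p = 0.044) and 0.39 (adjusted p = 2.1e-05). With *ACVR1* WT the calls of *Mxi1*, *Kdm3a* and *Bhlhe40* were lost without *ACVR1* WT replicate 2 or any single library of *ACVR1* WT with H3.1K27M, that of *Bhlhe40* also without *ACVR1* WT replicate 3, and that of *Ndrg1* without *ACVR1* WT replicate 2 or replicate 1 or 2 of *ACVR1* WT with H3.1K27M. *Ddit4*, an inhibitor of mTOR signalling, was at 149 to 211 CPM over all libraries and fell by 0.14 next to *ACVR1* R206H (adjusted p = 0.026), a call lost in 4 of the 6 fits that left out a library. *Ankrd37*, at 0.251 to 0.922 CPM, overlaps *Ufsp2* and *Lrp2bp* and was called in no comparison with all libraries. It was lower with H3.1K27M next to *ACVR1* WT once *ACVR1* WT replicate 1 was left out (-1.04, adjusted p = 0.034).

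Without H3.1K27M, where no gene passed, the genes with the smallest unadjusted p for R206H in the quasi-likelihood test of edgeR were *Car9* (-1.69), *Egln1* (-0.19) and *Ankrd37* (-0.91) among those lower, and *Slc16a1* (0.20), *Bhlhe40* (0.08) and *Eno2* (0.14) among those higher. The adjusted p was 0.94 or more for each. Without *ACVR1* WT replicate 1, 11 of the 40 were called, where 23.1% of all genes were (12.1% higher, 11% lower). *Car12* (1.29), *Eno1* (0.65), *Pkm* (0.40), *Pgk1* (0.28) and *Ddit4* (0.23) were then higher with R206H, and *Car9* (-2.05), *Epas1* (-0.80), *Bnip3* (-0.68), *Pdk1* (-0.59), *Pfkfb3* (-0.48) and *Mxi1* (-0.33) were lower. For *Epas1* the value was -0.10 without *ACVR1* WT replicate 3 instead. In 10 of these 11 genes, all but *Car9*, the mean of *ACVR1* R206H lay between *ACVR1* WT replicate 1 on one side and replicates 2 and 3 on the other. The same holds for *Gfap*, whose part in the result was not tested.

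**Figure D5:**
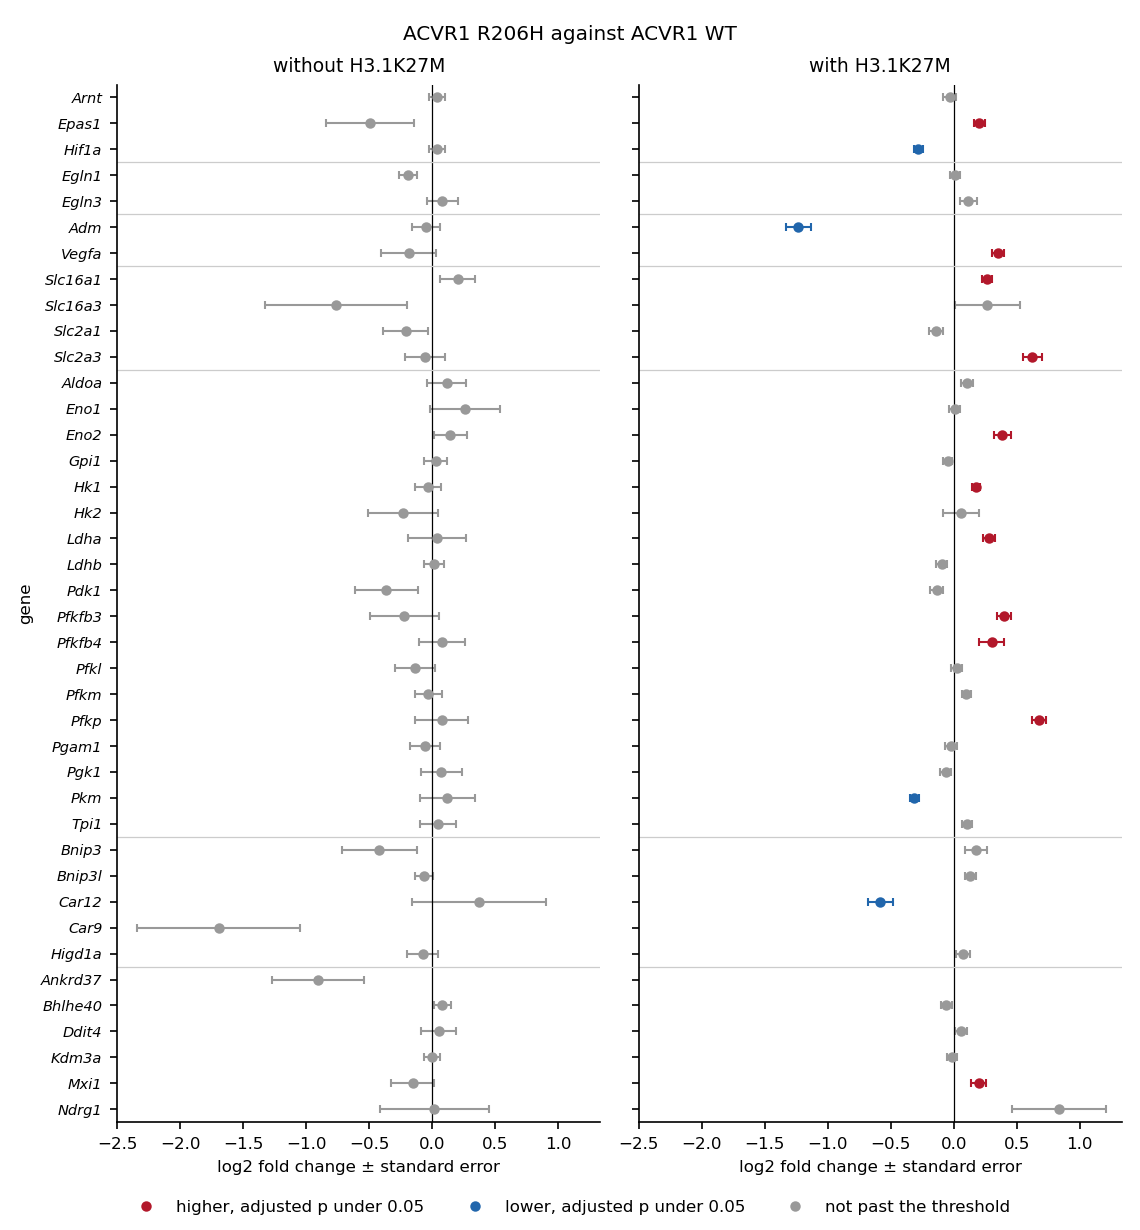
Log2 fold change with *ACVR1* R206H over *ACVR1* WT for each gene tested, without and with H3.1K27M, grouped by role. Bars show the estimate ± standard error. With H3.1K27M *Adm* lies furthest to the left (-1.23), *Pfkp* (0.68) and *Slc2a3* (0.62) lie to the right with *Ndrg1* (0.83), which did not pass the test, and the bars without H3.1K27M are wider.

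The other genes of the pathway, from lists of related genes that share none with the 40, give the setting. Of 34 other hypoxia targets tested, 13 rose and 11 fell with H3.1K27M next to *ACVR1* R206H (70.6% called, against 56.5% of all genes), 6 and 4 next to *ACVR1* WT (29.4% against 23%), and 9 and 2 with R206H next to H3.1K27M (32.4% against 20.3%). *Vldlr*, a lipoprotein receptor, rose with H3.1K27M by 1.11 with WT and 1.06 with R206H, *Hmox1*, heme oxygenase, by 1.53 and 1.05, and *Irs2*, an adaptor of insulin signalling, by 0.48 and 0.70, while *Anxa2*, a calcium-binding membrane protein, rose with R206H by 0.74 and *Angptl4*, a lipase inhibitor, fell by 0.62. Of 16 other HIF regulators, 3 rose and 3 fell next to *ACVR1* R206H (37.5% called, below the 56.5% of all genes). *Cited2*, a competitor for the coactivator of HIF, rose with H3.1K27M by 0.66 and 1.22 next to WT and R206H, and with R206H by 0.73 next to H3.1K27M. *Arnt2*, the neural form of ARNT, gave 0.26 with H3.1K27M next to *ACVR1* R206H and -0.12 with R206H next to H3.1K27M, and *Vhl* gave -0.19 in the latter, and all 3 were called.

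Of 16 other glycolysis genes tested, 7 rose and 5 fell with H3.1K27M next to *ACVR1* R206H (75% called, against 56.5% of all genes) and 1 rose and 2 fell next to *ACVR1* WT (18.8% against 23%). *Aldoc*, the aldolase of astrocytes, fell by 0.79 and 0.96 respectively and rose with R206H next to H3.1K27M by 0.46. *Gapdh* fell by 0.24 with H3.1K27M next to *ACVR1* R206H (adjusted p = 0.016). Genes downstream of pyruvate follow. Of 30 genes of pyruvate entry and the TCA cycle, 19 rose and 1 fell with H3.1K27M next to *ACVR1* WT, with a median of 0.43, where 12.6% of all genes rose and 10.4% fell, and 25 rose and 2 fell next to *ACVR1* R206H, with a median of 0.34, where 29.1% rose and 27.4% fell. They summed to 5092 to 5994 CPM in *ACVR1* WT, 5593 to 5743 in *ACVR1* R206H, 7453 to 7667 in *ACVR1* WT with H3.1K27M and 7062 to 7322 in *ACVR1* R206H with H3.1K27M. *Idh3a*, a subunit of isocitrate dehydrogenase, rose by 1.04 and 1.01, *Sucla2*, of succinyl-CoA ligase, by 0.59 and 0.62, and *Mpc1*, the mitochondrial pyruvate carrier, by 0.84 next to WT. With R206H next to H3.1K27M the list gave 3 higher and 3 lower (20% called, against 20.3% of all genes). Without *ACVR1* WT replicate 1, H3.1K27M next to *ACVR1* WT gave 25 higher and 3 lower in the list, 10 and 11 among the 34 other hypoxia targets, 3 and 3 among the 16 other HIF regulators and 6 and 5 among the 16 other glycolysis genes, where 52.6% of all genes were called. In the pentose phosphate list of 8 genes, 0 were called next to *ACVR1* WT (4 without its replicate 1, all higher), 2 rose next to *ACVR1* R206H and 2 fell with R206H next to H3.1K27M, at or below 25% called in each with all libraries, against 23%, 56.5% and 20.3% of all genes.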

How the data were processed

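RNA of 12 samples of mouse brainstem progenitors, 3 per group, was sequenced, and groups and replicate numbers came from the sample labels. The authors aligned reads to mm10 (GRCm38) with STAR (2.6.0b-1 in the submitters' processing notes) and counted them on Ensembl genes with HTSeq, without strand and in union mode. The deposited values are raw counts per gene and sample, not normalized. Rows were named through GENCODE M21, and 54409 of 54532 identifiers matched.

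Counts were tested with edgeR 4.0.16 in R 4.3.3 (quasi-likelihood F test, TMM scaling, Benjamini-Hochberg adjustment over all genes tested), on the 6 samples of each comparison and on all 12 for the interaction, with a mean of at least 10 counts after median-of-ratios scaling and a threshold of 0.05. Standard errors are the log2 fold change over the square root of F. TPM used the union of exons. Alternatives were DESeq2 1.42.0, its size factors in edgeR, no minimum count, the replicate number as a block, all 12 samples in one fit, and each sample left out. The pipeline was tested on simulated counts.

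The members and lists were chosen with earlier results of these data known. Named one by one were *Hif1a*, *Epas1*, *Arnt*, *Adm* and, per comparison, up to 6 members in each direction with the smallest adjusted p past the threshold, or up to 3 with the smallest unadjusted p where none passed, up to 4 genes of each other list, and *Gapdh*, *Vhl*, *Arnt2*, *Calcrl*, *Ramp2* and *Vegfb* for their role. Further members with values beside these were chosen after their values were seen. Lists of p53 targets, stress genes and cell type markers were counted as well. Promoters came from RefSeq (GRCm38.p6), and no protein sequence was used.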

Additional observations from a re-analysis of the deposited data

Results flagged for a closer look

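The R206H effect on *Adm* differed between the backgrounds by a test of the difference itself, the only member to pass in edgeR with all 12 libraries. The effect was -0.05 on the log2 scale without H3.1K27M and -1.23 with it, and the interaction was -1.18 (SE 0.15, adjusted p = 0.021, edgeR quasi-likelihood test on 12 samples). Adjusted p was 0.054 to 0.11 in 9 of the 12 fits that left out a library and 0.078 with the replicate block, and DESeq2 added *Hif1a*. Without *ACVR1* WT replicate 1, 19 members passed, where 26.6% of all genes did. The 3 libraries with both mutations were each below the 9 others. The count assigned to mouse *Acvr1* was also highest in the group with both mutations, at 548 to 1056 CPM against 46.1 to 368 in the other groups, and its part in the result was not tested.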

How the results depend on the processing

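Counts of called genes are given here as all genes, then members. For R206H without H3.1K27M, DESeq2 called 26 and the fit of all 12 samples 11 of all genes, with 0 members each. For R206H with H3.1K27M, the fit of all 12 samples called 440 and 3. For H3.1K27M with *ACVR1* WT it called 6335 and 23, DESeq2 called 4522 and 21, and with *ACVR1* R206H the fit of all 12 samples called 5963 and 21. For the interaction, DESeq2 called 96 and 2, *Hif1a* being added (adjusted p = 2.8e-06), and no minimum count gave 18 of all genes. With 1 sample left out, the counts ran from 0 to 3485 and 0 to 11 for R206H without H3.1K27M, 1915 to 2966 and 13 to 15 with it, 1037 to 8115 and 4 to 30 for H3.1K27M with *ACVR1* WT, 7589 to 8350 and 29 to 32 with *ACVR1* R206H, and 3 to 4112 and 0 to 19 for the interaction. The upper ends 3485, 8115 and 4112 came without *ACVR1* WT replicate 1. Values near 0 changed sign for *Adm* under R206H without H3.1K27M (-0.13 to 0.0070) and *Arnt* under R206H with H3.1K27M (-0.067 to 0.0062).

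The labels do not say whether same-numbered replicates were paired, and the main fits did not pair them. The correlation of their deviations was between -0.14 and 0.42, and in no comparison above 0.1 in every pair. For R206H without H3.1K27M it was 0.31 and 0.42 in replicates 1 and 2 and -0.14 in replicate 3. With 3 samples a group these values cannot decide whether the replicates were paired. With the replicate block, H3.1K27M with *ACVR1* WT gave 2023 of all genes and 9 members, and the interaction gave 2 and 0 (*Adm* adjusted p = 0.078). Low counts limit *Car9*, *Ankrd37*, *Ndrg1* and *Slc16a3*, each under 6 CPM in every library, and *Car9* and *Ankrd37* were not tested in every comparison. With 3 samples a group, the wide spread of *ACVR1* WT limits each comparison that uses it.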

Other observations

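Lists of p53 targets and stress genes were counted in the H3.1K27M comparisons, where 23% of all genes were called next to *ACVR1* WT and 56.5% next to *ACVR1* R206H. Of 10 p53 targets, 7 were higher and 1 lower next to *ACVR1* WT, with *Mdm2* at 1.13, *Phlda3* at 1.51, *Ccng1* at 1.21 and *Sesn1* at -0.91 on the log2 scale, and 8 were higher and 2 lower next to *ACVR1* R206H, with *Cdkn1a* at 1.28. Of 13 genes of the integrated stress response, 5 were higher and 0 lower next to *ACVR1* WT, and 8 higher and 2 lower next to *ACVR1* R206H, with *Chac1* at 2.81, *Trib3* at 3.70 and *Sesn2* at 0.95. With R206H next to H3.1K27M, 1 p53 target and 5 stress genes were higher, and 0 and 1 lower, where 20.3% of all genes were called. Of the 13 stress genes, 38.5% and 76.9% were called with H3.1K27M next to WT and R206H. Without *ACVR1* WT replicate 1, H3.1K27M next to WT gave 9 higher and 1 lower of the p53 targets and 8 higher and 2 lower of the stress genes, where 52.6% of all genes were called.

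Over the 12 samples, the genes whose log2 CPM followed *Adm* most closely among 15444 were *Gphn* (Pearson r = 0.976), *Smoc1* (0.969) and *Wnt7b* (0.968). For *Epas1* they were *Sorcs2* (0.993), *Pdrg1* (0.991) and *Cmtm3* (0.990). The 12 points fall into the study's groups, so that these values mostly describe differences between groups.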
